A study of Rattus norvegicus with 9 samples.

Results

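Cwc25, Csrnp3, Lrrc20 and Trpm7 are 4 of the 14217 genes named on the array, and 5 of its 31042 probe sets for rat genes report them. They were chosen by their measured course in these arrays, in which a first session of immobilization moved them and their level after 6 sessions lay near or past that of unstressed rats. Their levels and differences between groups are therefore given as a description, with no test. Cwc25, Csrnp3 and Lrrc20 have 1 probe set each, all assigned through expressed sequence tags. Trpm7 has a pair, called set A (assigned through its RefSeq mRNA) and set B (through an expressed sequence tag) here. The description under which the genes were grouped, a change after the first session alone, held unevenly. It described Csrnp3 and Lrrc20 most closely, whereas Trpm7 differed from control far more after 6 sessions than after 1.

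RNA came from the dissected adrenal medulla, the catecholamine-secreting core of the adrenal gland, of adult rats of 280 to 320 g. There were 3 arrays of unstressed rats (control), 3 of rats immobilized for 1 session of 2 h (IMO_1x) and 3 of rats immobilized for 2 h on each of 6 days (IMO_6x). Both medullae of an animal were collected once its final session had ended. No strain, sex or genetic change is named for any group, Rattus norvegicus is the organism recorded, and label text naming mouse or brain was not followed. Whether an array stands for 1 animal or a pool is not stated, so p-values measure only the spread between these 9 samples, and 3 arrays per group limit the precision.

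All 7 chromaffin cell markers (Th, Ddc, Dbh, Pnmt, Chga, Chgb and Slc18a1) lay above the filter on dim probe sets in mean level, and so did all 8 measured markers of the adrenal cortex, which makes steroid hormones. The summed intensity of the cortex markers was 287311 to 416671 in control, 283416 to 665382 in IMO_1x and 913422 to 1659520 in IMO_6x, and that of the chromaffin markers 289396 to 446484, 274524 to 550043 and 983986 to 2357890. The sums follow the brightest markers. By mean log2 level 6 of the 8 cortex markers and 5 of the 7 chromaffin markers were higher in IMO_6x than in control, while Cyp11b1 was 15.02 in control and 13.87 in IMO_6x, Nr5a1 13.64 and 13.63, Slc18a1 13.90 and 12.78 and Ddc 14.93 and 14.78. The mean log2 level of 6 leukocyte markers was 12.64 to 12.85 in the control arrays and 11.42 to 12.38 in the IMO_6x arrays. Of these 6, 1 was higher in IMO_6x, Cd74, at 14.82 in control and 15.35 in IMO_6x. None of these markers was at 0, and their part in the levels below was not tested. In such bulk tissue, fewer cells of a type and less RNA per cell cannot be told apart. The IMO_6x arrays also stood apart in RNA quality. Their actin 3′/5′ ratio, which grows as the labelled RNA is less complete, was 231, 6.11 and 8.87 in replicates 1, 2 and 3. The control arrays had ratios from 1.45 to 2.15 and the IMO_1x arrays from 1.57 to 1.99 (log2 difference of IMO_6x from control 3.68, exact permutation p = 0.1, two-sided, the smallest that 3 against 3 arrays allow). Across genes, the correlation of IMO_6x replicate 1 with any other array was 0.604 to 0.730, and any pair of the remaining 8 reached 0.854 to 0.983. Member differences that use IMO_6x are therefore given with and without that array. The median intensity was 1583, 593 and 675 in IMO_6x replicates 1, 2 and 3. It was 910 to 1053 in control and 826 to 975 in IMO_1x. Differences without IMO_6x replicate 1 thus rest on arrays whose medians lay below that of every control array.

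The 4 genes belong to unlike processes. Cwc25 encodes a spliceosome factor that, as known from the yeast Saccharomyces cerevisiae, joins the activated spliceosome for the first of the chemical steps that remove an intron. Csrnp3 belongs to a family of cysteine- and serine-rich nuclear proteins, which in mouse were found to bind DNA and activate transcription. Its relative Csrnp1 is known as an early induced gene. Lrrc20 encodes a small protein of leucine-rich repeats whose role is little known. Trpm7 encodes an ion channel for magnesium, calcium and zinc fused to a protein kinase of the alpha-kinase family, and it is known for holding cellular magnesium. In the adrenal medulla, nerve impulses during stress raise calcium and cAMP in chromaffin cells, and factors such as AP-1 and CREB carry those signals to genes through the AP-1 element and the cAMP response element.

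The promoters of 3 of the 4 genes, Cwc25, Lrrc20 and Trpm7, were in the RefSeq table used, on build GRCr8, and that of Csrnp3 was not. They are shown because the mean levels of Cwc25 and Trpm7 were above control and that of Lrrc20 below it after 1 session. For Trpm7 that difference was smaller than its standard error in a fit shared by all groups, which takes in the wide spread of IMO_6x. The 250 bases before the start of each gene are printed 5′ to 3′ on the strand of the gene. Capitals mark matches to the AP-1 element (TGANTCA) or to TGACG, the short form of the cAMP response element, on either strand. Cwc25 lies at chr10:83256723-83256972 on the minus strand, Lrrc20 at chr20:29965490-29965739 on the plus strand and Trpm7 at chr3:134588114-134588363 on the minus strand.
Cwc25: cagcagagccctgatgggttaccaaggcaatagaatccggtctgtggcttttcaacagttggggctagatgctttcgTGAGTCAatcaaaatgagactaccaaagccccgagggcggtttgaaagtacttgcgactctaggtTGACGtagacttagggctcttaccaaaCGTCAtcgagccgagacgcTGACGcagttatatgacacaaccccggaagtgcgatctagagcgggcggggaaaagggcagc
Lrrc20: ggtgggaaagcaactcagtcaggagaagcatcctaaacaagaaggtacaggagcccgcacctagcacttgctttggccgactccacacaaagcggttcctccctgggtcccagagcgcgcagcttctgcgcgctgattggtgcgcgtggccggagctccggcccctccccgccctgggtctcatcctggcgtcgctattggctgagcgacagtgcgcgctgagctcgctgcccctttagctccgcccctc
Trpm7: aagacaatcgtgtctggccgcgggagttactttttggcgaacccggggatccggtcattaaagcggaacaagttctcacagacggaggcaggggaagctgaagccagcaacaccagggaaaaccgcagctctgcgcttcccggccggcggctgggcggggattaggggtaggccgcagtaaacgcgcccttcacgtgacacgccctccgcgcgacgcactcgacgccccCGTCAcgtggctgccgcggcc

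Motifs were searched in 300 bases, from 250 before to 50 after the start. The Cwc25 promoter held 1 match to the AP-1 element, starting 173 bases before the start, a motif held by 7.33% of all 27457 promoters of that length. It also held 3 matches to TGACG, which begin 108, 81 and 62 bases before the start. TGACG was in 22% of all promoters and occurred 3 or more times in 1.23%. The Trpm7 promoter held 1 match to TGACG, beginning 21 bases before the start, and none to the AP-1 element. The Lrrc20 promoter held neither. The full response element TGACGTCA (1.91% of all promoters) and AGAGTG (16.6%), the element bound by Csrnp proteins in mouse, were found in none of the 3, and no motif overlapped another. The G and C content of the printed bases was 52.8% for Cwc25, 64.4% for Lrrc20 and 65.2% for Trpm7. A match is a run of letters, and no binding was measured in these samples.

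Cwc25 showed the widest swing of the 4 genes. Its intensity was 2764, 608 and 872 in control replicates 1, 2 and 3, then 39302, 14808 and 27728 in the IMO_1x replicates, and 143, 421 and 678 in the IMO_6x replicates. All 3 IMO_1x arrays lay far above all others, and the IMO_6x arrays overlapped control only through IMO_6x replicate 3, which exceeded control replicate 2. On the log2 scale, after adding 16 to each intensity, the level was 10.17 ± 1.13 in control, 14.63 ± 0.71 in IMO_1x and 8.51 ± 1.09 in IMO_6x (SD, n = 3 each). IMO_1x thus lay 4.45 ± 0.66 above control (standard error, SE, of the fit shared by all groups), a 21.9-fold difference on that scale. IMO_6x lay at -1.67 ± 0.66 relative to control, and at -1.07 without IMO_6x replicate 1 or -1.03 without control replicate 1. Ranked by size among the 11287 genes tested, the difference between IMO_1x and control was the 23rd largest on the upper side. The difference of IMO_6x from IMO_1x was -6.12 ± 0.66 on the log2 scale, and -5.52 without IMO_6x replicate 1. The IMO_6x mean of 8.507 lay just under the level of the filter on dim probe sets, 8.513, so no rank is given for it.

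The control arrays differed widely for Cwc25. Control replicate 1 was 11.44 on the log2 scale, and replicates 2 and 3 were 9.28 and 9.79. Leaving out 1 array moved the difference of IMO_1x from control to between 4.01 and 5.09 and that of IMO_6x from control to between -2.13 and -1.03.

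Csrnp3 followed a like course with less spread. Its intensities were 2557, 1980 and 1496 in control, 25300, 15453 and 16978 in IMO_1x and 1483, 2314 and 3926 in IMO_6x. The IMO_1x arrays stood apart from the rest, while control and IMO_6x overlapped. The log2 level was 10.95 ± 0.38 in control, 14.20 ± 0.38 in IMO_1x and 11.23 ± 0.70 in IMO_6x (SD, n = 3 each). IMO_1x lay 3.25 ± 0.36 (SE) above control, or 9.50-fold, and 59th among the tested genes on the upper side. The difference of IMO_6x from control was 0.28 ± 0.36, smaller than the SD between the IMO_6x arrays. It was 0.61 without IMO_6x replicate 1 and -0.083 without IMO_6x replicate 3, and 0.46 and 0.081 without control replicates 1 and 3. IMO_6x lay at -2.97 ± 0.36 relative to IMO_1x, the 7th lowest of the tested genes, and at -2.63 without IMO_6x replicate 1.

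Lrrc20 moved the other way. Its intensity was 874, 726 and 1145 in control, 83.2, 94.8 and 72.2 in IMO_1x, and 1246, 316 and 590 in IMO_6x. All 3 IMO_1x arrays lay below all others, and IMO_6x replicate 1 lay above the whole control group while replicates 2 and 3 lay under it. The log2 level was 9.84 ± 0.32 in control, 6.63 ± 0.16 in IMO_1x and 9.31 ± 0.97 in IMO_6x (SD, n = 3 each). IMO_1x differed from control by -3.21 ± 0.58 (SE). The IMO_1x level lay below the filter level of 8.51, which the probe set passed, at a mean of 8.59 over all arrays, only through control and IMO_6x. No detection calls came with the values, so whether Lrrc20 was above background in IMO_1x is not known, and no fold or rank is given for it. The size of the difference also depends on the added constant, with -3.42 when 1 was added and -2.71 when 64 was added. IMO_6x lay 2.68 ± 0.58 above that dim IMO_1x level, and 2.18 above it without IMO_6x replicate 1. Its distance from control, -0.53 ± 0.58, became -1.03 without IMO_6x replicate 1, the array with the actin ratio of 231. With IMO_6x replicate 2 left out instead, the distance was -0.07, so either array moved it by about as much as its size.

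Trpm7 took another course than the one by which the genes were grouped. Set B had intensities of 4194, 3923 and 4019 in control, 5090, 6154 and 8477 in IMO_1x, and 122, 1350 and 1432 in IMO_6x. Set A had 3456, 2613 and 2848 in control, 3734, 3182 and 3394 in IMO_1x, and 89.4, 941 and 550 in IMO_6x. In both sets every IMO_6x array lay below every control array. IMO_1x lay wholly above control in set B and overlapped it in set A.

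On the log2 scale, set B was 11.99 ± 0.05 in control, 12.65 ± 0.37 in IMO_1x and 9.34 ± 1.93 in IMO_6x, and set A 11.54 ± 0.21, 11.75 ± 0.12 and 8.59 ± 1.66 (SD, n = 3 each). The difference of IMO_1x from control was thus 0.67 ± 0.75 (SE) in set B, smaller than its SE. That SE comes from 1 spread shared by all groups, so it takes in the IMO_6x SD of 1.93. It does not measure the spread of control and IMO_1x alone, whose SDs were 0.05 and 0.37. In set A, which was not in the fit, the difference of IMO_1x from control was 0.22. The difference of IMO_6x from control was -2.65 ± 0.75 (SE) in set B and -2.95 in set A. Without IMO_6x replicate 1 these became -1.53 and -2.01. The difference of IMO_6x from IMO_1x was -3.31 ± 0.75 (SE) in set B, second from the bottom of the tested genes, and -2.20 without IMO_6x replicate 1. Over the 9 arrays the pair of sets correlated at r = 0.975, and at 0.914 over the 8 arrays without IMO_6x replicate 1. That array held by far the lowest value in both sets. The spread of set B in IMO_6x, 1.93, was the largest of any group and probe set of the 4 genes.

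**Figure D1:**
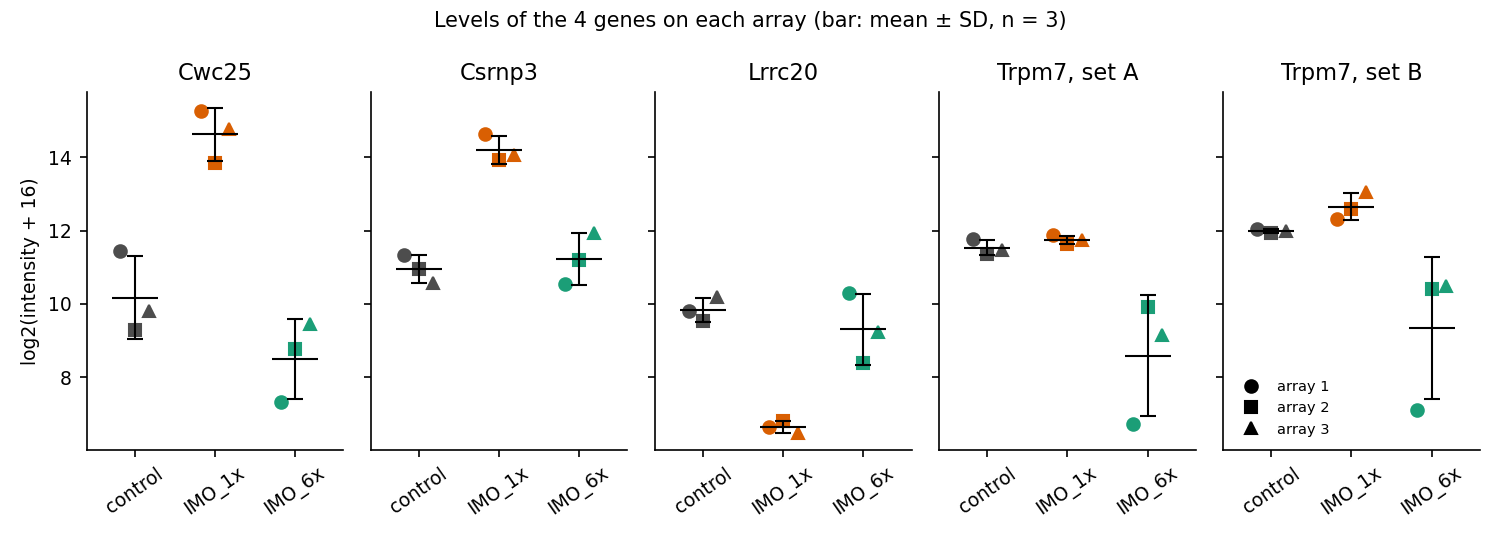
Level of each probe set, as log2(intensity + 16), on the vertical axis for the 3 control, 3 IMO_1x and 3 IMO_6x arrays on the horizontal axis, where circles, squares and triangles are replicates 1, 2 and 3 and bars give the mean ± SD (n = 3). Cwc25 and Csrnp3 peaked in IMO_1x at 14.63 and 14.20, Lrrc20 dipped there to 6.63, and both Trpm7 sets were lowest in IMO_6x, at 8.59 and 9.34.

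A ranking within each array does not depend on how arrays were scaled against each other, and it gave the same picture for the IMO_1x arrays. Of the probe sets of an array, Cwc25 exceeded 40.7 to 71.8% in control, 95.3 to 98.9% in IMO_1x and 6.87 to 50.2% in IMO_6x. By rank, IMO_6x replicates 2 and 3, at 43.8 and 50.2%, lay within the control range of Cwc25, and replicate 1 alone lay below it. Csrnp3 exceeded 59.9 to 70.1%, 95.6 to 97.8% and 47.5 to 81.3%. Lrrc20 exceeded 44.5 to 54.7% in control and 8.84 to 11.5% in IMO_1x. In the IMO_6x arrays it exceeded 41.7, 38.2 and 47.0%, so by rank IMO_6x replicate 1 no longer lay above the control arrays. By rank IMO_6x replicate 3 lay within the control range of Lrrc20, and replicates 1 and 2 lay below it. Set B of Trpm7 exceeded 78.5 to 80.6% in control, 85.1 to 90.3% in IMO_1x and 5.37, 63.6 and 64.5% in IMO_6x. Set A exceeded 70.3 to 76.6%, 76.2 to 79.9% and 2.84 to 57.7%. By rank, IMO_1x and control did not overlap for set B, and overlapped narrowly for set A.

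**Figure D2:**
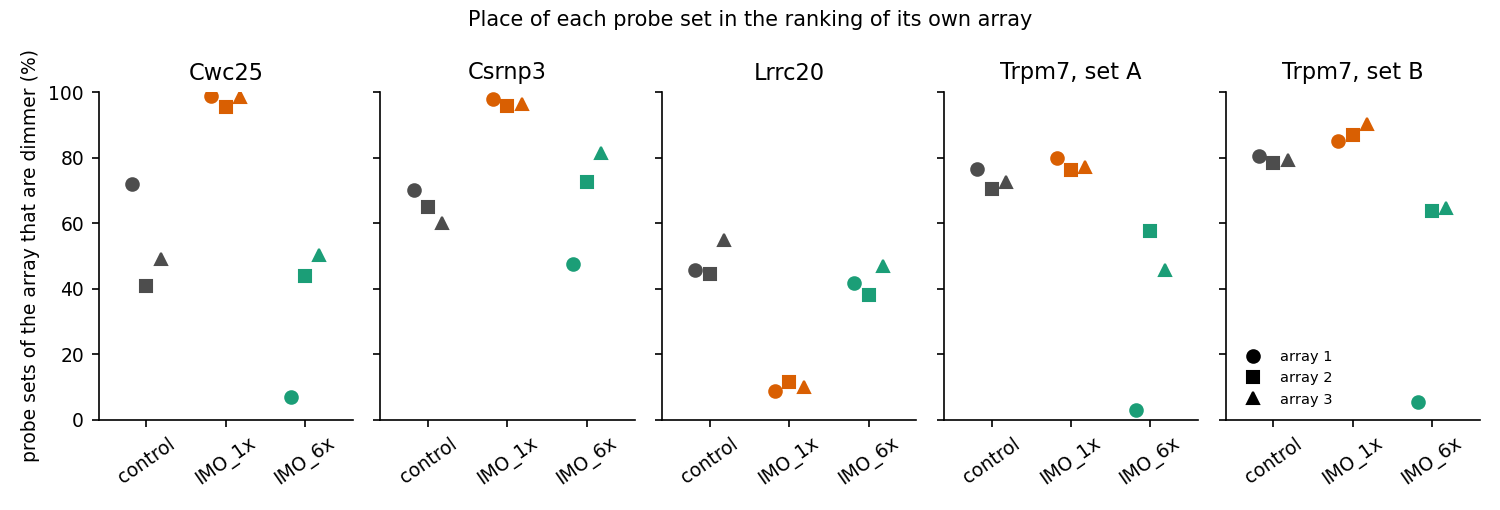
Share of the probe sets of an array that were dimmer than the probe set shown (vertical axis, percent), by array and group, with symbols for replicates 1, 2 and 3. Cwc25 and Csrnp3 lay above 95% on all IMO_1x arrays, Lrrc20 lay between 8.84 and 11.5% there, and IMO_6x replicate 1 placed both Trpm7 sets at 2.84 and 5.37%.

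The actin 3′/5′ ratio was higher in the IMO_6x arrays than in the others, and its part in the IMO_6x levels was not tested. Across the IMO_6x arrays the array with the ratio of 231 was the lowest for Cwc25, Csrnp3 and both Trpm7 sets and the highest for Lrrc20. In set A of Trpm7 the order of the 3 arrays ran opposite to the order of their ratios, with log2 levels of 9.90, 9.15 and 6.72 at ratios of 6.11, 8.87 and 231. For Lrrc20 the order of the arrays ran the same way as that of their ratios, at 8.37, 9.24 and 10.30. For Cwc25, Csrnp3 and set B of Trpm7 the order was not that of the ratios, as IMO_6x replicate 3 had both a higher ratio and a higher level than IMO_6x replicate 2. In IMO_1x the ratio was within the control range (log2 difference -0.08, exact permutation p = 0.9), and the differences of Cwc25, Csrnp3 and Lrrc20 between IMO_1x and control were measured between arrays of like ratio. Which stretch of each transcript a probe set reports is not given in the sources used here.

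**Figure D3:**
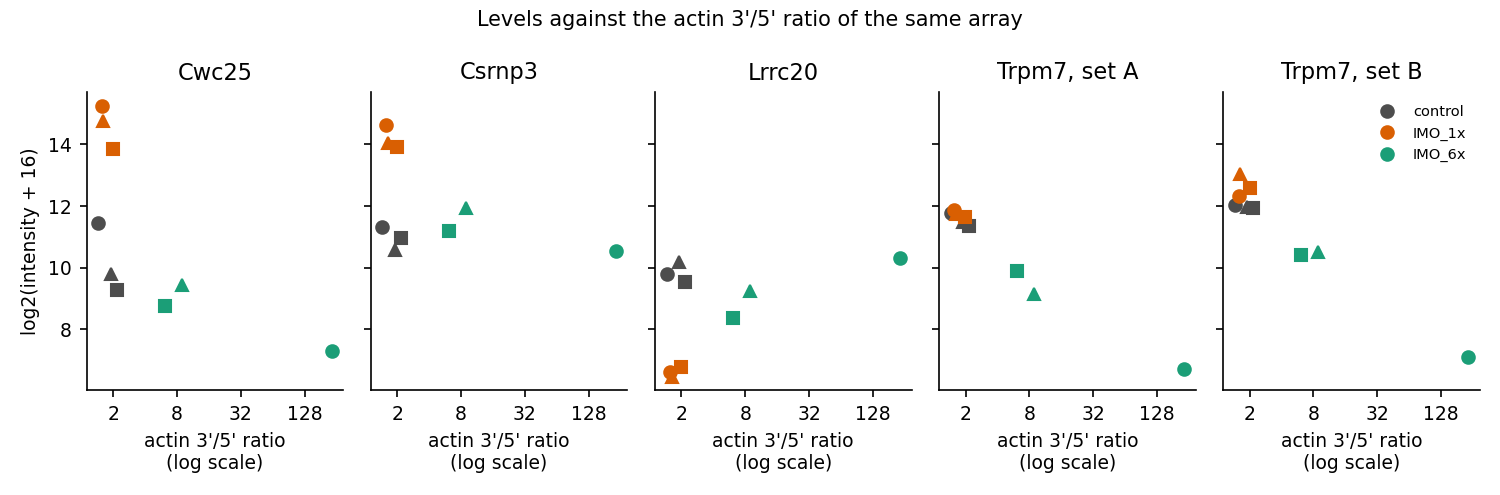
Level of each probe set (vertical axis, log2(intensity + 16)) against the actin 3′/5′ ratio of the same array (horizontal axis, log scale), coloured by group and with symbols for replicates 1, 2 and 3. Control and IMO_1x arrays share ratios of 1.45 to 2.15, while the IMO_6x arrays lie at 6.11, 8.87 and 231, where the Trpm7 sets reach 6.72 and 7.11.

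How many genes took such a course was counted over the whole array. A gene passed in a comparison at a Benjamini-Hochberg adjusted p under 0.05 by limma. Between IMO_1x and control 9.51% of the 11287 genes passed, 4.2% upward and 5.31% downward. Of these 1073 genes, 205 (19.1%) had an IMO_6x mean within 0.5 of control on the log2 scale or on the other side of it, 90 that had risen and 115 that had fallen. The count was 1075 without IMO_6x replicate 1 and 33 to 103 without any 1 of the control or IMO_1x arrays. By means alone, Csrnp3 lay within that distance of control, Cwc25 and set B of Trpm7 lay on the other side, and Lrrc20 lay just beyond it.

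Genes with the most similar course were named for each of the 4 by Pearson's r of log2 levels, a ranking of all tested genes over few arrays that share their groups, so a high r is built in. For Cwc25 the highest over 9 arrays were Acta2, smooth muscle actin (r = 0.968), Fgfr1, a receptor of fibroblast growth factors (0.966), and Zswim4 (0.958). Their swings were smaller than that of Cwc25, with Acta2 at a log2 level of 11.68 in control, 12.82 in IMO_1x and 11.19 in IMO_6x. Without IMO_6x replicate 1 the names changed to Rlim, a ubiquitin ligase (0.979), Tiparp, an ADP-ribosyltransferase (0.976), and Fam13c (0.975). Tiparp had a log2 level of 11.94 ± 0.47 in control, 14.18 ± 0.16 in IMO_1x and 11.68 ± 0.24 in IMO_6x (SD, n = 3 each).

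Csrnp3 was followed most closely by Ass1, argininosuccinate synthase (r = 0.969), Zrsr2-ps1 (0.964) and Spag4 (0.958). Ass1 stood at a log2 level of 12.29 ± 0.50 in control, 15.09 ± 0.49 in IMO_1x and 12.84 ± 0.86 in IMO_6x (SD, n = 3 each). Over 8 arrays Zbtb38 (0.986), which binds methylated DNA, Ankrd53 (0.984) and Mfsd14a (0.980) took their place. For Lrrc20 the list was Dolk, dolichol kinase (0.988), Mpv17l2 (0.985) and Fhip2a (0.975). Dolk, at log2 levels of 13.12, 11.53 and 12.69 in control, IMO_1x and IMO_6x, was also among the 3 highest over 8 arrays (0.989), after Polr2b, a core subunit of RNA polymerase II (0.990), and Ribc1 (0.989).

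For set B of Trpm7 the highest were Wee1, a kinase that delays mitosis (r = 0.993), Git1 (0.989) and Plekha3 (0.988), each low in IMO_6x, with Wee1 at 9.60 ± 1.20 there against 11.35 ± 0.16 in control (SD, n = 3). Over 8 arrays they were Zfp326 (0.990), Abcf2 (0.989) and Rnf138 (0.985). None of the 4 genes was among the 3 highest of another, and of these names Dolk alone appeared both with and without IMO_6x replicate 1.

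Relatives of the 4 genes were followed in 6 lists with 88 tested genes, to set the members beside their families and partners. After 1 session 12 of the 88 (13.6%) passed, 6 up and 6 down, against 9.51% of all genes. Leaving out any 1 control or IMO_1x array gave 4 to 7, and leaving out IMO_6x replicate 1 gave 28 of 86 (32.6%, against 30.2% of all genes). Csrnp1, the early induced relative of Csrnp3, rose after 1 session. Its log2 level was 11.09, 10.93 and 11.14 in control, 13.39, 13.89 and 14.01 in IMO_1x and 11.96, 12.78 and 12.55 in IMO_6x. Every IMO_1x array lay above every IMO_6x array, and every IMO_6x array above every control array. Csrnp1 rose by 2.71 ± 0.25 (SE) after 1 session (limma, adjusted p = 0.00022) and was 1.38 ± 0.25 above control after 6 (limma, adjusted p = 0.00481), and 1.61 without IMO_6x replicate 1. The call after 6 sessions was lost with median centring of the arrays (adjusted p = 0.134, with alternatives spanning 1.41e-06 to 0.134). The third of the family, Csrnp2, did not pass (-0.52 after 1 session, adjusted p = 0.504, and -0.85 after 6, adjusted p = 0.121, by limma). Thus Csrnp1 stood above control after 6 sessions, while for Csrnp3 the mean difference was 0.28. Whether these courses differ was not tested.

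The spliceosome list took in the activated complex, the first step in which Cwc25 acts, and also later-acting factors such as Dhx38. Among its 26 tested genes 1 rose and 2 fell after 1 session. That share, 11.5%, was near the 9.51% of all genes. The median log2 fold change was -0.26, against -0.13 for all genes. Dhx38, a helicase that readies the spliceosome for the second step, rose by 1.62 ± 0.22 (SE, limma, adjusted p = 0.00208). Its log2 levels were 11.48, 11.45 and 11.35 in control, 12.82, 12.86 and 13.44 in IMO_1x and 11.78, 11.34 and 11.35 in IMO_6x, so IMO_1x stood alone above the others. Prpf19, the ubiquitin ligase of the spliceosome, fell by 1.41 ± 0.20 (limma, adjusted p = 0.00265, and 0.24 with median centring, with alternatives spanning 1.45e-06 to 0.24). Crnkl1, a scaffold protein, fell by 0.99 ± 0.24 (limma, adjusted p = 0.0323), a call lost without control replicate 1 or 3 or any 1 of the IMO_1x arrays (adjusted p = 0.115, 0.137, 0.0837, 0.103 and 0.127, with alternatives spanning 0.000311 to 0.302).

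After 6 sessions 5 of these 26 rose and 3 fell (30.8%, against 24.3% of all genes, and a median of -0.03 against -0.23). Without IMO_6x replicate 1, 7 rose and 6 fell (50%, against 48.3% of all genes). Ctnnbl1 rose by 1.72 ± 0.25 (limma, adjusted p = 0.00176), while Prpf19 fell by 1.10 ± 0.20 (limma, adjusted p = 0.00493, and 0.26 with median centring, with alternatives spanning 2.5e-05 to 0.26). Dhx16, the helicase that in yeast acts just before Cwc25 does its part, fell by 1.09 ± 0.26 (limma, adjusted p = 0.0158, and 0.0519 and 0.0677 without control replicates 1 and 3, with alternatives spanning 0.00013 to 0.340). Over all 6 lists 23 of 88 (26.1%) passed after 6 sessions, 13 up and 10 down, against 24.3% of all genes, 9.36% up and 14.9% down. The share of related genes past the threshold was thus near that of all genes. Without a control array the count was 10 to 12, and without IMO_1x replicate 3 or IMO_6x replicate 3 it was 15. Without IMO_6x replicate 1 it was 43 of 86 (50%, against 48.3% of all genes).

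Of the channels and kinases related to Trpm7 none passed. Of the 7 other Trpm genes, 4 were named on the array, and Trpm1 and Trpm4 were bright enough to test. By limma 0 of 2 passed in any comparison, also at an unadjusted p under 0.05. Of 6 alpha kinases and known substrates of the Trpm7 kinase, among them Eef2k, Anxa1 and Myh9, 0 passed by limma in any comparison. At an unadjusted p under 0.05 by limma, 1 of them was lower after 1 session and none differed after 6. Between IMO_6x and IMO_1x, 1 was higher and 1 lower at that threshold. Of all 11287 genes, 863 were higher and 1673 lower at that threshold after 1 session. The numbers were 1547 and 2723 after 6 sessions, and 1524 and 1622 between IMO_6x and IMO_1x. Of all genes 9.51% passed after 1 session, 24.3% after 6 and 9.84% between IMO_6x and IMO_1x. Without IMO_6x replicate 1, 1 of these 6 fell in each comparison (16.7%). The shares of all genes were then 30.2% after 1 session, 48.3% after 6 and 32.4% between IMO_6x and IMO_1x.

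Of 17 genes of magnesium handling, the process Trpm7 serves, 1 rose and 1 fell after 1 session (median 0.15, against -0.13 for all genes). The share that passed, 11.8%, was near the 9.51% of all genes. Cnnm3, a regulator of magnesium transport, fell by 1.75 ± 0.22 (limma, adjusted p = 0.00119, and 0.0697 with median centring, with alternatives spanning 2.19e-07 to 0.0697), with log2 levels of 12.53 to 13.13 in control and 10.97 to 11.35 in IMO_1x. It was also lower than control after 6 sessions (-1.30 ± 0.22, limma, adjusted p = 0.00335, and -1.41 without IMO_6x replicate 1). That call was lost with median centring (adjusted p = 0.117, with alternatives spanning 2.16e-06 to 0.117). Slc41a3, a magnesium transporter, rose by 1.30 ± 0.35 after 1 session (limma, adjusted p = 0.0446), a call lost without any 1 of the control or IMO_1x arrays (adjusted p = 0.0955, 0.155 and 0.154, then 0.142, 0.112 and 0.137) or without IMO_6x replicate 2 (0.052), with alternatives spanning 5.58e-06 to 0.445. With a replicate block its adjusted p by limma was 0.0708.

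After 6 sessions 3 magnesium genes rose and 1 fell (23.5%, against 24.3% of all genes, and a median of 0.12 against -0.23). Without IMO_6x replicate 1, 8 rose and 2 fell of 16 (62.5%, against 48.3% of all genes, and a median of 0.52 against -0.23). Ptp4a2, a phosphatase that binds Cnnm proteins, rose by 1.67 ± 0.28 (limma, adjusted p = 0.00307). Its log2 level was 16.81, 15.83 and 15.91 in IMO_6x against 14.48 to 14.55 in control, and the rise was 0.80 under quantile normalization. Tusc3, related to the magnesium transporter Magt1, rose by 0.98 ± 0.22 (limma, adjusted p = 0.0124, and 0.0611 without control replicate 3, with alternatives spanning 2.21e-05 to 0.237).

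The genes that carry the Lrrc name share leucine-rich repeats with Lrrc20 but no common task. Of 35 tested, 3 rose and 3 fell after 1 session (17.1%, against 9.51% of all genes), and 4 rose and 6 fell after 6 (28.6%, against 24.3%). Without IMO_6x replicate 1 these counts were 5 and 6 after 1 session (31.4%, against 30.2% of all genes) and 6 and 11 after 6 (48.6%, against 48.3%). Lrrc58 rose by 1.60 ± 0.33 after 1 session (limma, adjusted p = 0.0156) and by 3.11 ± 0.33 after 6 (limma, adjusted p = 0.000439), the latter by 2.14 under quantile normalization. Its log2 level was 13.64 to 14.40 in control, 15.08 to 16.07 in IMO_1x and 16.75 to 17.24 in IMO_6x, 3 groups without overlap. The first of these calls was lost without control replicate 2 or 3 or IMO_1x replicate 1 or 2 (adjusted p = 0.0847, 0.0914, 0.0531 and 0.0548, with alternatives spanning 2.62e-05 to 0.0914). Lrrc32 rose by 1.29 ± 0.27 and Lrrc8d fell by 0.95 ± 0.20 after 1 session (limma, adjusted p = 0.0153 and 0.0160). Lrrc32 lost its call without control replicates 1 and 3 and IMO_1x replicates 2 and 3 (adjusted p = 0.053, 0.0797, 0.0751 and 0.0872, with alternatives spanning 8.45e-05 to 0.147), and Lrrc8d without control replicates 2 and 3 and IMO_1x replicates 1 and 2 (0.082, 0.0882, 0.0621 and 0.0699, with alternatives spanning 4.98e-05 to 0.523). After 6 sessions Lrrc71 fell by 1.18 ± 0.20 and Lrrc57 by 1.28 ± 0.27 (limma, adjusted p = 0.00344 and 0.00955). The call of Lrrc57 was lost with quantile normalization and with median centring (adjusted p = 0.0917 and 0.124, with alternatives spanning 0.000356 to 0.124). Averaged over its probe sets, the log2 fold change of Lrrc71 was -0.30 (adjusted p = 0.41, with alternatives spanning 4.51e-06 to 0.41).

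Between IMO_6x and IMO_1x, 9.84% of all genes passed, 5.21% up and 4.63% down. Of the 88 related genes 10 (11.4%) passed, 6 up and 4 down. Dhx38 was lower after 6 sessions than after 1, by -1.55 ± 0.22 (SE, limma, adjusted p = 0.00967), and so was Csrnp1, by -1.33 ± 0.25 (limma, adjusted p = 0.0157). The count of 10 rests on few arrays: it was 3 to 5 without control replicate 2 or 3, IMO_1x replicate 1 or IMO_6x replicate 3. Without IMO_6x replicate 1 it was 27 of 86 (31.4%, against 32.4% of all genes). Without IMO_1x replicate 2, 35 of all genes and 0 of the related genes passed by limma, and without IMO_1x replicate 3, 0 of either did. Dhx38 then had an adjusted p of 0.0501 and 0.0577 (5.6e-06 to 0.0976 over its alternatives) and Csrnp1 one of 0.072 and 0.08 (9.12e-06 to 0.304).

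**Figure D4:**
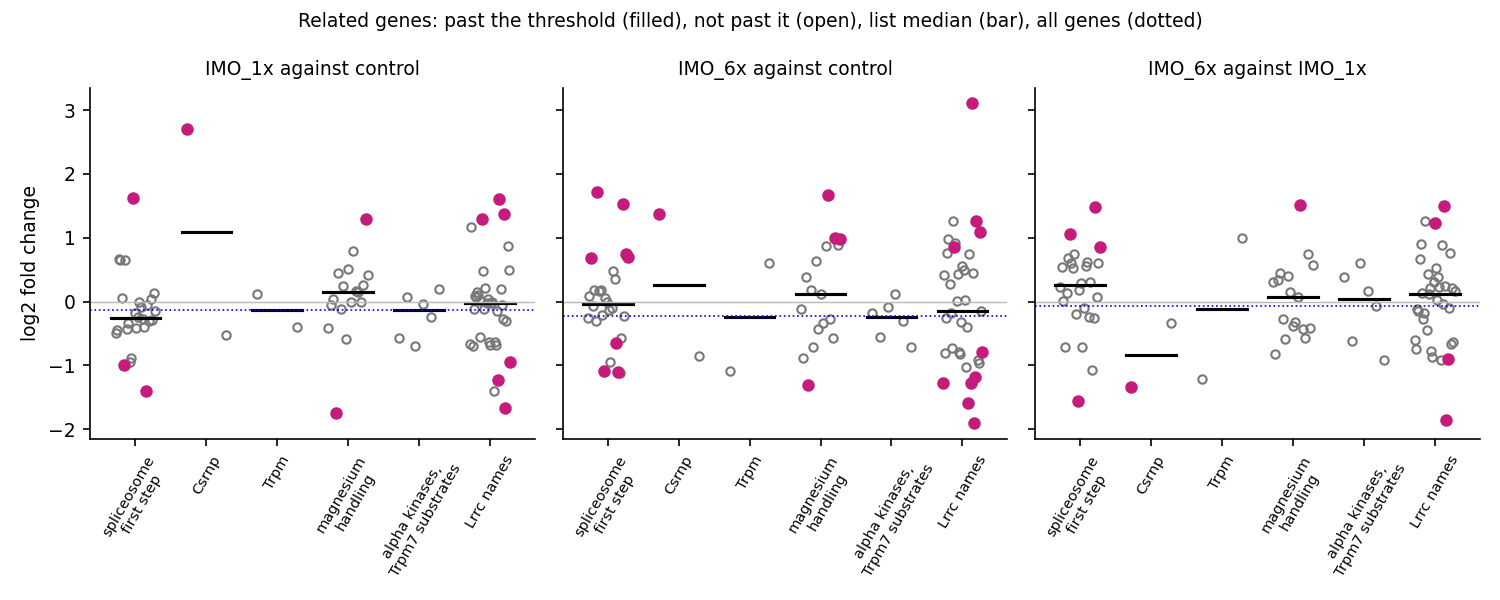
Log2 fold change (vertical axis) of each tested gene of the 6 lists of relatives in the 3 comparisons, with filled points past an adjusted p of 0.05 by limma, open points not past it, a bar at the list median and a dotted line at the median of all genes (-0.13, -0.23 and -0.08). Csrnp1 at 2.71 stands highest after 1 session and Lrrc58 at 3.11 after 6.

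The genes that flank the 4 in the order of GRCr8 were looked up after the values of the 4 had been seen, taking the nearest pair of tested genes on each side. After 1 session 1 of these 16 neighbours passed (6.2%, against 9.51% of all genes). It was Pip4k2b beside Cwc25, which fell by 0.86 ± 0.17 (limma, adjusted p = 0.0141, and 0.0732, 0.0744 and 0.0717 without control replicates 2 and 3 and IMO_1x replicate 3, with alternatives spanning 3.6e-05 to 0.583), opposite to Cwc25. Over the 16 the log2 fold change ran from -0.86 to 0.84 (median 0.18). After 6 sessions 2 passed (12.5%, against 24.3% of all genes). They were Blvra beside Trpm7, which rose by 1.24 ± 0.26 (limma, adjusted p = 0.00912, and 0.165 with median centring, with alternatives spanning 2.02e-06 to 0.165), and Eif4ebp2 beside Lrrc20, which fell by 1.49 ± 0.37 (limma, adjusted p = 0.0184, and 0.0736 and 0.0793 without control replicates 2 and 3, with alternatives spanning 3.41e-05 to 0.193).

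Among the neighbours of Csrnp3 are the sodium channel genes Scn3a, Scn9a and Scn7a. Scn9a had a log2 fold change of 0.84 ± 0.27 after 1 session (limma, adjusted p = 0.0883) and of -0.78 ± 0.27 after 6 (limma, adjusted p = 0.0618). It was lower after 6 sessions than after 1, by -1.62 on the log2 scale (limma, adjusted p = 0.0119), the 1 neighbour of 16 to pass in that comparison. Without IMO_1x replicates 2 and 3 its adjusted p was 0.0571 and 0.0597 (7.63e-06 to 0.0738 over its alternatives). Scn3a and Scn7a had log2 fold changes of 0.13 and 0.24 after 1 session.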

How the data were processed

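The authors deposited linear intensity values, 1 for each probe set of each array. Per the labels' protocols the labelling was done by the array's maker. How probe sets were summarised and background removed is not given in the sources used here, and the series text names the GeneTraffic program for data analysis. Trimmed means of the 9 arrays lay between 2500.6 and 2501, so the authors had scaled each deposited intensity column as a whole. Probe sets were named from a platform annotation: 20826 had 1 gene symbol, 436 several and 9780 none, and 57 are array controls. All 4 genes had their identifier in the current gene table. Values were taken as log2(intensity + 16). For tests the dimmest 30% of probe sets were left out (all 5 probe sets of the 4 genes passed), and the brightest probe set stood for a gene, which left 11287 genes. One limma 3.58.1 fit in R 4.3.3 (lmFit, eBayes with trend, 6 residual degrees of freedom) held all 9 arrays. Tests were two-sided with Benjamini-Hochberg adjustment over all genes tested, and the fit was tested on simulated data. Array ratios were compared in Python 3.11.15 with scipy 1.17.1.

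The 4 genes and the lists were chosen with earlier results of these data known. Named are the 4 genes, up to 3 genes past the threshold per list and comparison, and the 3 most alike genes per member. Genes outside that rule (Csrnp2, Trpm1, Trpm4, Eef2k, Anxa1, Myh9 and the neighbours) were named after their values were seen. By deviations from group means, same-numbered control and IMO_1x arrays went together (r = 0.508, 0.360 and 0.250), a pairing that the labels do not state. Control replicate 2 and IMO_1x replicate 3, of unlike number, had r = 0.275. Same-numbered arrays of IMO_6x and the other groups had 0.060 to 0.158. The main fit held no term for pairs, so its SEs and p-values take the arrays as unpaired. Alternatives were other filters, added constants and scalings, array weights, a replicate block, the mean of all probe sets and leaving out arrays.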

Additional observations from a re-analysis of the deposited data

Results flagged for a closer look

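The array controls, which no comparison of genes used, lay above the control group in IMO_6x. The actin 3′/5′ ratio was 231, 6.11 and 8.87 in IMO_6x replicates 1, 2 and 3, and that of GAPDH was 5.02, 1.79 and 1.87. No control array exceeded 2.15 for actin or 1.41 for GAPDH.

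By limma's test of IMO_6x against IMO_1x, 10 of the 88 related genes passed (11.4%, against 9.84% of all genes). The 8 that were named for that comparison were chosen because they passed it, so their number is no result. The log2 difference was -1.55 for Dhx38, 0.86 for Xab2, 1.07 for Ctnnbl1, -1.33 for Csrnp1, 1.51 for Ptp4a2, 1.5 for Lrrc58, -0.90 for Lrrc71 and 1.23 for Lrrc45. Each of these 8 calls was lost without IMO_1x replicate 2 and without IMO_1x replicate 3 (for Xab2, adjusted p = 0.0865 and 0.101, with alternatives spanning 0.000471 to 0.315). The change of Lrrc58 was 0.41 under quantile normalization, and that of Lrrc71 averaged over its probe sets was -0.13.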

How the results depend on the processing

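For Trpm7 these settings were run on set B, and set A entered only the mean of all probe sets. The differences of the 4 genes from control kept their direction under the other added constants, quantile normalization, median centring, the mean of all probe sets and each left-out array. The exception was that of Csrnp3 in IMO_6x, which was -0.083 without IMO_6x replicate 3. Under the added constants, the scalings and the mean of all probe sets, differences stayed within 1 SD between replicates of the reported value. The exception was Lrrc20 in IMO_1x with 64 added (-2.71). With 3 arrays per group, leaving out 1 cannot move a difference by that SD, so those settings are given as ranges only. Leaving out 1 array gave 4.01 to 5.09 for Cwc25, 3.03 to 3.44 for Csrnp3, -3.36 to -3.04 for Lrrc20 and 0.47 to 0.83 for set B of Trpm7 in IMO_1x. In IMO_6x it gave -2.13 to -1.03, -0.083 to 0.61, -1.03 to -0.07 and -3.22 to -1.53, in the same order. 

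Median centring moved the median of all genes (log2 fold change) from -0.13 to -0.00025 for IMO_1x and from -0.23 to -0.058 for IMO_6x, and counts of genes past the threshold moved more. For IMO_1x, IMO_6x and IMO_6x against IMO_1x, median centring gave 225, 689 and 60 of all genes and 3, 3 and 0 of the related genes, against 1073, 2738 and 1111 and 12, 23 and 10. Array weights, whose estimate did not converge, gave 4498, 6555 and 5588, and 40, 52 and 48. Quantile normalization gave 629 and 6 for IMO_6x against IMO_1x. Without the 3 IMO_6x arrays, a setting added after seeing the data, 3203 and 23 passed for IMO_1x. Leaving out 1 array gave 362 to 3410, 1380 to 5461 and 0 to 3664 of all genes, and 4 to 28, 10 to 43 and 0 to 27 of the related genes, highest in all 6 without IMO_6x replicate 1. All groups enter 1 estimate of the spread. The 205 genes of like course became 15 with median centring and 33 to 1075 with 1 array left out. The rises and falls were 474 and 599 for IMO_1x, 461 and 347 with quantile normalization and 158 and 67 with median centring. They were 1057 and 1681 for IMO_6x, 1039 and 943 with quantile normalization and 462 and 227 with median centring.

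Same-numbered arrays were treated as matched only in the replicate block, an alternative to the main fit. It used the replicate numbers of all 9 arrays. Of the 9 same-numbered pairs over all groups 6 had r over 0.1, against 3 of 18 pairs of unlike number. The replicate block gave 977, 2741 and 943 of all genes and 10, 22 and 8 of the related genes, and it ended the calls of Slc41a3 in IMO_1x and of Lrrc45 in IMO_6x against IMO_1x (limma, adjusted p = 0.0708 and 0.0656) and no other call of a named gene.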
